A study of Mus musculus with 4 samples.

Results

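In all, 10 interleukin (IL) genes were followed through single-cell RNA-sequencing of popliteal lymphatic vessels (PLVs) and the adjacent superficial saphenous vein (SSV). They were chosen by name, and all 10 were found among the 31053 genes listed for the tdT1 library and the 32287 listed for each of the other libraries. They are the ligands Il1a, Il1b, Il6 and Osm (oncostatin M), the receptor antagonist Il1rn and the decoy receptor Il1r2. The others are the signalling receptors Il1r1 and Osmr, the ligand-binding chain Il6ra and the shared signalling chain Il6st (gp130). The matrices hold counts of unique molecular identifiers (UMIs), each of which stands for 1 captured mRNA molecule.

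The WT library came from male wild-type mice (C57BL6 in the labels, C57BL/6J in the methods) and the TNF-Tg library from male mice that carry a human TNF transgene and develop chronic inflammatory-erosive arthritis. The labels give 9 months for both, and live (DAPI-) cells of high scatter were sorted from PLVs and SSV together. The tdT1 and tdT2 libraries came from male and female Cspg4-Cre+/-, Ai9-tdTomato+/- mice on the same background, older than 8 months, with sorting of tdTomato+ cells, so they hold mainly cells in which the Cspg4 promoter had driven Cre. Each library pooled 3 mice, which leaves 1 pool for WT, 1 for TNF-Tg and 2 for tdT. Library and condition cannot be told apart for TNF-Tg against WT, so that comparison has no test, and its intervals (95%, exact) cover counting error only. RNA of the transgene was not analysed here.

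IL-1 signals when IL-1α or IL-1β binds the receptor encoded by Il1r1 together with its accessory chain Il1rap. The IL-1 receptor antagonist occupies that receptor without signalling, and the type 2 receptor binds IL-1 without a signalling domain and so acts as a decoy. IL-6 binds its own receptor chain, membrane-bound or shed, and the complex then signals through gp130. Oncostatin M pairs gp130 with its own receptor chain. In inflamed joints these cytokines are known to come from myeloid and stromal cells and to drive acute-phase proteins, chemokines and matrix enzymes in stromal cells.

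Cells were assigned to types from marker genes that exclude the 10 members. LMC-type stroma (lymphatic muscle cell type, with Myoc, Pi16 and Fndc1 among its 8 markers) held 692, 118, 1502 and 562 cells in tdT1, tdT2, WT and TNF-Tg. VSMC-type stroma (vascular smooth muscle cell type, with Cxcl14, Mgp and Gdf10 among its 8 markers) held 137, 93, 558 and 381 cells. Both names follow the cluster markers of the study, and the contractile genes Acta2, Myh11, Tagln, Cnn1 and Des summed to only 11.6 to 39.3 CPM (UMIs of a gene among 1e+06 UMIs of the same cells) in the former and 3.50 to 15.0 CPM in the latter, while both carried Col1a1, Col3a1 and Dcn, which the broad stromal gate used. Stromal cells assigned to neither type (other stroma) were 172, 33, 178 and 177 cells in tdT1, tdT2, WT and TNF-Tg. Of them 102, 21, 99 and 120 lay near a gate limit, and 99, 0, 27 and 7 had over 10% mitochondrial UMIs. Other stroma is thus in large part a remainder of the gates, not a separate cell type. The libraries held 454 to 5488 cells and 2357031 to 68773605 UMIs, with median depths of 4932.5 to 12660 UMIs per cell. The tdT1 library stood apart in quality, with 516 of 1504 cells over 10% mitochondrial UMIs. Of 10826 barcodes, 11 occurred in 2 libraries. Leukocytes assigned to no named type were 73 cells (1.33%) in WT and 244 (7.20%) in TNF-Tg. They held 5 Il1b and 24 Osm UMIs in WT against 357 and 62 in TNF-Tg. Ccr2 macrophages were 618 and 180 cells by gates and 512 and 341 by clusters in WT and TNF-Tg. Cd209a dendritic cells were 176 and 160 by gates and 156 and 245 by clusters, so the gates may cut these types unequally.

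Of the 10 genes, 9 had a promoter window in the RefSeq table for GRCm38.p6, and Osm had none. Windows of 250 bases are shown, those of the genes whose stromal levels the comparisons below turn on. Capitals mark matches on either strand to GGANNTTCC (NF-kB type), TGANTCA (AP-1 type), TTCNNNGAA (STAT type) or TTGCNNAA (C/EBP type). The first lies at chr5:30012864-30013113 (plus strand), the second at chr1:40085843-40086092 (plus strand) and the third at chr3:89913197-89913446 (minus strand, printed 5′ to 3′ along the gene).
Il6: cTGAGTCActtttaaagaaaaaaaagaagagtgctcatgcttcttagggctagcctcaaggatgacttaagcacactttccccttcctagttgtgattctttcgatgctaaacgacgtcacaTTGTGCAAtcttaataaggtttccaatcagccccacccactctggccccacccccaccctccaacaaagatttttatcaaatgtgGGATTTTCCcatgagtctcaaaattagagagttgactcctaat
Il1r2: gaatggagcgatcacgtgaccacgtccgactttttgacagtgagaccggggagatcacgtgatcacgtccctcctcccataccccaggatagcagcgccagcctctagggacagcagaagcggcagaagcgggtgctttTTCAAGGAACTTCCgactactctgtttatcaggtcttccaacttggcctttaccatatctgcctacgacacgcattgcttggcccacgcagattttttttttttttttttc
Il6ra: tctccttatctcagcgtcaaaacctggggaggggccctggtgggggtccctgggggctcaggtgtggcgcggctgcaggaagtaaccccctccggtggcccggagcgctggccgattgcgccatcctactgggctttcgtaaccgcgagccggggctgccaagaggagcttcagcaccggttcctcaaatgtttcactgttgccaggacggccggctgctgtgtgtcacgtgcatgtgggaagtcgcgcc

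The Il6 window held 3 matches, the AP-1 type at 249 bases before the start, the C/EBP type at 128 on the opposite strand and the NF-kB type at 43. The Il1r2 window held an NF-kB type match at 106 bases and a STAT type match at 111, which overlap each other. No match of these letters lay in the Il6ra window. Among all 32851 windows of the table, 3.59% held the NF-kB type, 6.75% the AP-1 type, 7.02% the STAT type and 9.56% the C/EBP type. A match is given as a description only. In the mm10 (GRCm38) annotation Il6 spans chr5:30013114-30019981, Il6ra chr3:89864059-89913196 and Il1r2 chr1:40074079-40125231, and the RefSeq start used for the Il1r2 window lies inside that gene. Il1r2 has its neighbour Il1r1 at chr1:40225080-40317257. Il1b lies at chr2:129364570-129371139, Il1a at chr2:129299610-129309972, Il1rn at chr2:24336853-24351494, Il6st at chr13:112464070-112510086, Osm at chr11:4236420-4241026 and Osmr at chr15:6813577-6874969. Antisense genes overlap Il1b (Il1bos), Il1r2 (Gm16894) and Il6ra (Gm42809). On the same strand, Gm37347 overlaps Il1r2 and Gm38070 overlaps Il1r1. Galt likewise overlaps Il11ra1, a receptor chain given below. The part of these overlaps in the counts was not tested. The counts come from the 3′ ends of transcripts, so membrane-bound and soluble forms of a receptor are not separated.

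The first question was which cells held each member. UMIs of Il1b, Il1rn and Osm lay mostly in leukocytes, whereas those of the receptors other than Il6ra lay mostly in stroma. In the WT library, 96.3% of the Il1r1 UMIs, 91.7% of the Il1r2 UMIs, 96.6% of the Osmr UMIs and 81.4% of the Il6st UMIs lay in stromal cells, which were 40.8% of the cells and held 46.9% of all UMIs. In the TNF-Tg library these stromal shares were 93.2%, 87.3%, 94.6% and 86.0%, with stroma at 33.0% of the cells. Il6 was the ligand with a stromal majority, at 68.4% of 117 UMIs (59.1 to 76.7%) in WT and 69.3% of 374 UMIs (64.3 to 73.9%) in TNF-Tg. Il6ra differed from its partner Il6st, with 34.8% of its UMIs in stroma in WT and 14.7% in TNF-Tg. Inflammatory monocytes (Ly6c2, Chil3 and Plac8 among their markers), which were 1.31% of the cells in WT and 18.5% in TNF-Tg, held 32.8% of the Il6ra UMIs of TNF-Tg.

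**Figure D1:**
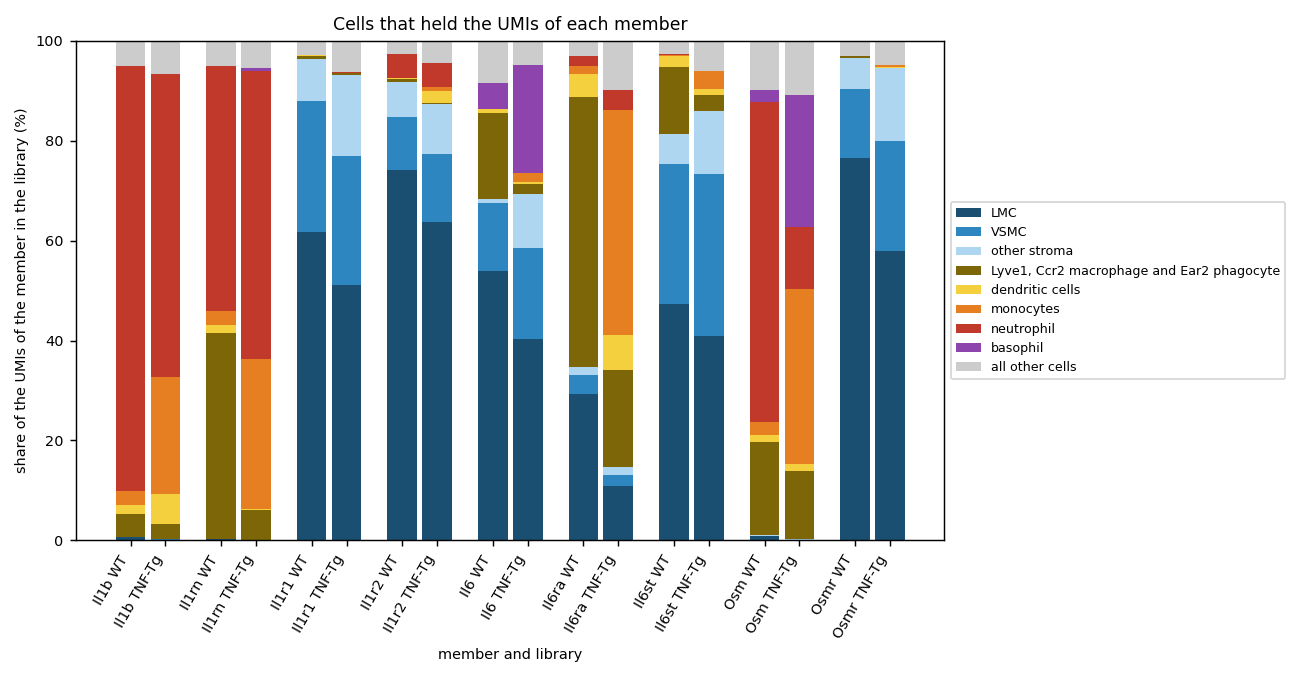
Share of the UMIs of each member (vertical axis, %) that lay in cells of each type, for the WT and TNF-Tg libraries side by side; Il1a, with 1 UMI in each, is left out. Il1r1, Il1r2, Il6st and Osmr were mostly stromal in both libraries, Il1b and Il1rn mostly myeloid, and the neutrophil share of Osm was 64.1% in WT and 12.5% in TNF-Tg.

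Among the ligands, Il1a was close to undetected. It had 13 UMIs in the tdT1 library, none in tdT2 and 1 in each of WT and TNF-Tg, so no comparison was possible at this depth.

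Il1b, which encodes the IL-1β precursor that inflammasomes process, was a neutrophil transcript. Its level in neutrophils was 10539 CPM in tdT1 (11 cells), 7974 CPM in tdT2 (30 cells) and 5684 CPM in WT (348 cells), against 7314 CPM in TNF-Tg (221 cells). At least 1 UMI was seen in 99.4% of WT and 99.1% of TNF-Tg neutrophils at median depths of 3545 and 3143 UMIs, against 1.86% of the WT LMC-type cells at a median of 16136. Of the other named types with 50 or more cells, inflammatory monocytes followed in WT with 270.5 CPM, and patrolling monocytes in TNF-Tg with 526 CPM (215 cells). The 5 patrolling monocytes of WT had 1168 CPM (849 to 1568 CPM, 44 UMIs), but these UMIs lay in only 3 cells, and the mean over cells was 831 CPM. All neutrophils together held 85.0% of the Il1b UMIs in WT and 60.6% in TNF-Tg. The 3 stromal types lay between 0 and 3.94 CPM wherever they held 50 or more cells.

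Among the types with 50 or more cells in both libraries and at least 20 Il1b UMIs over both, Il1b was at least 2-fold higher in TNF-Tg than in WT in 2. It was 52.5 CPM in WT against 214 CPM in TNF-Tg in Cd209a dendritic cells (log2 ratio 2.03, 1.76 to 2.31), with a UMI in 21.0% and 48.8% of the cells against 1.86% and 1.60% of the LMC-type cells. It was 4.25 and 35.7 CPM in Lyve1 macrophages (log2 ratio 3.07, 2.59 to 3.56), where all 102 UMIs of TNF-Tg came from 16 of 245 cells. All 6 neutrophil markers were present in these macrophages and summed to 94.6 CPM in WT against 726 CPM in TNF-Tg. At the ratio of Il1b to these markers within neutrophils, that sum goes with 50.8% of the Il1b level in WT and 55.1% in TNF-Tg. The same calculation gave 1.32% and 0.400% for the Cd209a dendritic cells. Below the limit of cells, cDC1 dendritic cells had 5.61 CPM in WT (2.25 to 11.6 CPM, 7 UMIs in 72 cells) against 182 CPM in TNF-Tg (143 to 228 CPM, 75 UMIs in 23 cells) and 93.6 CPM in tdT1, where all 13 UMIs lay in 1 of 16 cells. Il1b was 1.95-fold higher in Ccr2 macrophages (31.4 and 61.0 CPM), lower in inflammatory monocytes (270.5 and 160.0 CPM) and 0.36 higher on the log2 scale in neutrophils, all under 2-fold.

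Il6 was low in WT stroma and higher in the LMC-type, VSMC-type and other stroma of TNF-Tg, but highest in tdT1. In LMC-type stroma it was 89.0 CPM in tdT1, 4.34 CPM in tdT2 and 2.57 CPM in WT, against 19.4 CPM in TNF-Tg. In VSMC-type stroma it was 239.9, 0, 2.80 and 17.2 CPM in the same order, where the 0 of tdT2 allows a level of up to 6.09 CPM (3 UMIs). In the other stroma, tdT1 had 188 CPM, WT 0.497 CPM and TNF-Tg 19.2 CPM. The TNF-Tg over WT log2 ratio was 2.92 (2.48 to 3.36) in LMC-type, 2.62 (1.82 to 3.51) in VSMC-type and 5.28 (2.71 to 10.6) in other stroma, the last from 40 UMIs against 1. In LMC-type and VSMC-type stroma the 2 tdT libraries, which share a genotype, lay further apart than TNF-Tg and WT did. By the methods, tdT1 differed from the other libraries in sorting nozzle, preparation of the collection tube and sequencer. That gap can therefore not be read as spread within a genotype alone.

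Il6 was held by few cells. Of the LMC-type cells, 2.13% had an Il6 UMI in WT and 9.96% in TNF-Tg, against 0.162% of the WT Ccr2 macrophages and 0.957% of the TNF-Tg inflammatory monocytes at median depths of 12026.5 and 10903 UMIs (16136 and 12421.5 for the LMC-type cells). After thinning each cell to 3000 UMIs the LMC-type shares were 0.339% and 3.59%. In tdT1, 24.7% of the LMC-type cells had a UMI, the highest 10% of the cells held 82.2% of the Il6 UMIs, and 1 cell held 45. A list of 10 genes known to respond to tissue dissociation, among them Fosb, Egr1 and Hspa1a, summed to 18596 CPM in the LMC-type stroma of tdT1, 6271 CPM in tdT2 and 4154 CPM in WT, against 3293 CPM in TNF-Tg, so the sum was highest in the library with the most Il6 and lower in TNF-Tg than in WT. Its part in the Il6 levels was not tested. With cells over 10% mitochondrial UMIs or under 500 genes left out, Il6 in the LMC-type stroma of tdT1 was 82.5 CPM. Outside stroma, Il6 was highest in basophils of TNF-Tg among types with 50 or more cells, at 330.4 CPM and with a UMI in 61.7% of 60 cells (median depth 3934.5 UMIs), against 0 of 221 neutrophils at a median of 3143, which allows up to 4.01 CPM. The basophils held 21.7% of the Il6 UMIs of TNF-Tg, and the 8 basophils of WT had 193 CPM (70.9 to 421 CPM, 6 UMIs), an interval that overlaps that of TNF-Tg (262 to 411 CPM). Ear2 phagocytes had 3.27 CPM in WT, whereas 26 of them in tdT1 had 149 CPM (54 UMIs, of which 1 cell held 45), and 32 endothelial cells of tdT1 had 148.5 CPM (62 UMIs). Il6 was therefore high in these groups of tdT1 outside stroma, but not in every one. Lyve1 macrophages of tdT1 had 0 UMIs in 15 cells, Ccr2 macrophages 1 in 22 and Cd209a dendritic cells 2 in 22. The endothelial cells had no group of like size beside them, with 2 in TNF-Tg.

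**Figure D2:**
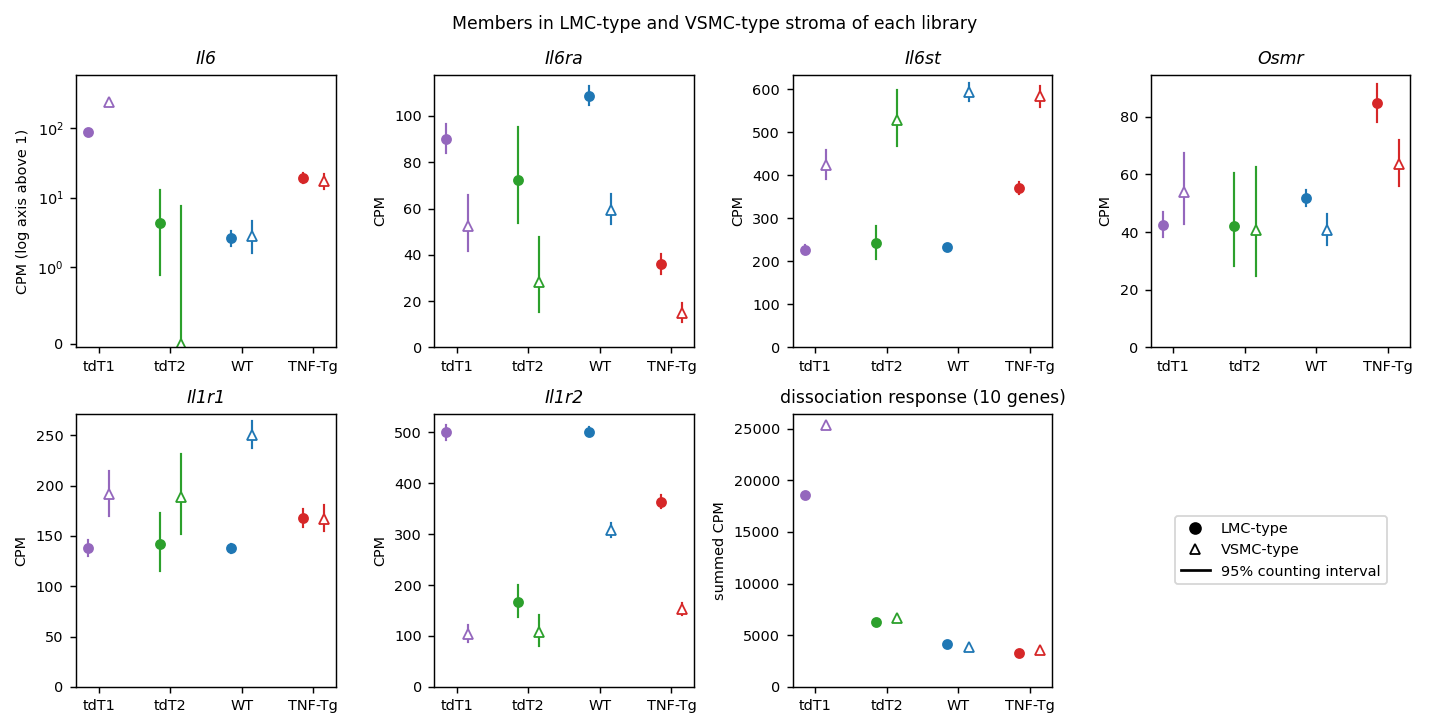
Level of 6 members and summed level of 10 dissociation-response genes (vertical axes, CPM; log axis above 1 for Il6) in LMC-type (filled circles) and VSMC-type (open triangles) stroma of each library, with 95% counting intervals. Il6 and the dissociation-response sum were both highest in tdT1, Il6ra was lowest in TNF-Tg for both types, and Il6st was higher in VSMC-type than in LMC-type stroma of every library.

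Osm RNA lay mainly in neutrophils in WT, and was spread over several cell types in TNF-Tg. Neutrophils had 853 CPM in tdT1 (11 cells), 185 CPM in tdT2 (30 cells) and 305 CPM in WT, against 135 CPM in TNF-Tg, so the TNF-Tg value was the lowest of the 4, although its interval (110 to 164 CPM) lay within that of tdT2. Lyve1 macrophages went the other way, with 3.96 CPM in WT against 21.7 CPM in TNF-Tg, as did Ccr2 macrophages with 6.22 and 18.4 CPM and inflammatory monocytes with 16.9 and 38.7 CPM. In tdT1, 22 Ccr2 macrophages had 52.7 CPM (25.3 to 96.8 CPM, 10 UMIs in 4 of the cells) and 7 inflammatory monocytes 166 CPM (93.1 to 274 CPM, 15 UMIs in 3 of the cells), both above TNF-Tg, while in tdT2 these types had 0 UMIs in 16 cells and 21.1 CPM in 25 cells (5.75 to 54.0 CPM, 4 UMIs). The log2 ratios of TNF-Tg to WT were −1.17 (−1.50 to −0.86) in neutrophils, 2.45 (1.91 to 3.00) in Lyve1 macrophages, 1.56 (0.95 to 2.17) in Ccr2 macrophages and 1.19 (0.40 to 2.12) in inflammatory monocytes. Neutrophil markers go with 2.92% of the Osm level of Lyve1 macrophages in WT and 1.67% in TNF-Tg by the calculation used for Il1b. The 60 basophils of TNF-Tg had 873 CPM, with a UMI in 85.0% of the cells against 0.262% of the VSMC-type cells of that library (median depth 9888 UMIs), and held 26.5% of its Osm UMIs. The 8 basophils of WT had 483 CPM (270.4 to 797 CPM, 15 UMIs). Inflammatory monocytes held 34.4%, and neutrophils 12.5%, against 64.1% in WT. T cells had 29.1 and 25.3 CPM. In LMC-type stroma Osm lay between 0 and 0.337 CPM in the 4 libraries.

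Il1rn, the antagonist, was also highest in neutrophils. They had 165 CPM in tdT1, 199 CPM in tdT2 and 137 CPM in WT, against 305 CPM in TNF-Tg, and a log2 ratio of TNF-Tg to WT of 1.15 (0.86 to 1.44). The intervals of tdT1 (6 UMIs, 60.6 to 359 CPM) and tdT2 (14 UMIs, 109 to 334 CPM) held both of the other values. The share of neutrophils with a UMI was 37.4% in WT and 53.8% in TNF-Tg, against 0.0666% of the WT LMC-type cells at their greater depth. Patrolling monocytes of TNF-Tg followed with 25.0 CPM, and Ear2 phagocytes of WT with 15.1 CPM. Lyve1 macrophages had 1.37 and 3.50 CPM in WT and TNF-Tg (log2 ratio 1.35, 0.09 to 2.53, from 19 and 10 UMIs), of which neutrophil markers go with 3.81% and 23.4%. Antagonist and ligand were set against each other as the ratio of Il1rn to Il1a plus Il1b UMIs. This ratio was 0.0242 (0.0208 to 0.0280) in WT neutrophils and 0.0417 (0.0363 to 0.0476) in TNF-Tg neutrophils. In macrophages it was lower in TNF-Tg, at 0.317 and 0.0980 in Lyve1 macrophages and at 0.228 and 0.0675 in Ccr2 macrophages. The Il1b in these ratios includes the 50.8% and 55.1% that neutrophil markers go with in Lyve1 macrophages, and 25.4% and 3.11% in Ccr2 macrophages. In Cd209a dendritic cells it was 0.0420 in WT and 0.00217 in TNF-Tg, the latter from 1 UMI of Il1rn and 460 of Il1b.

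**Figure D3:**
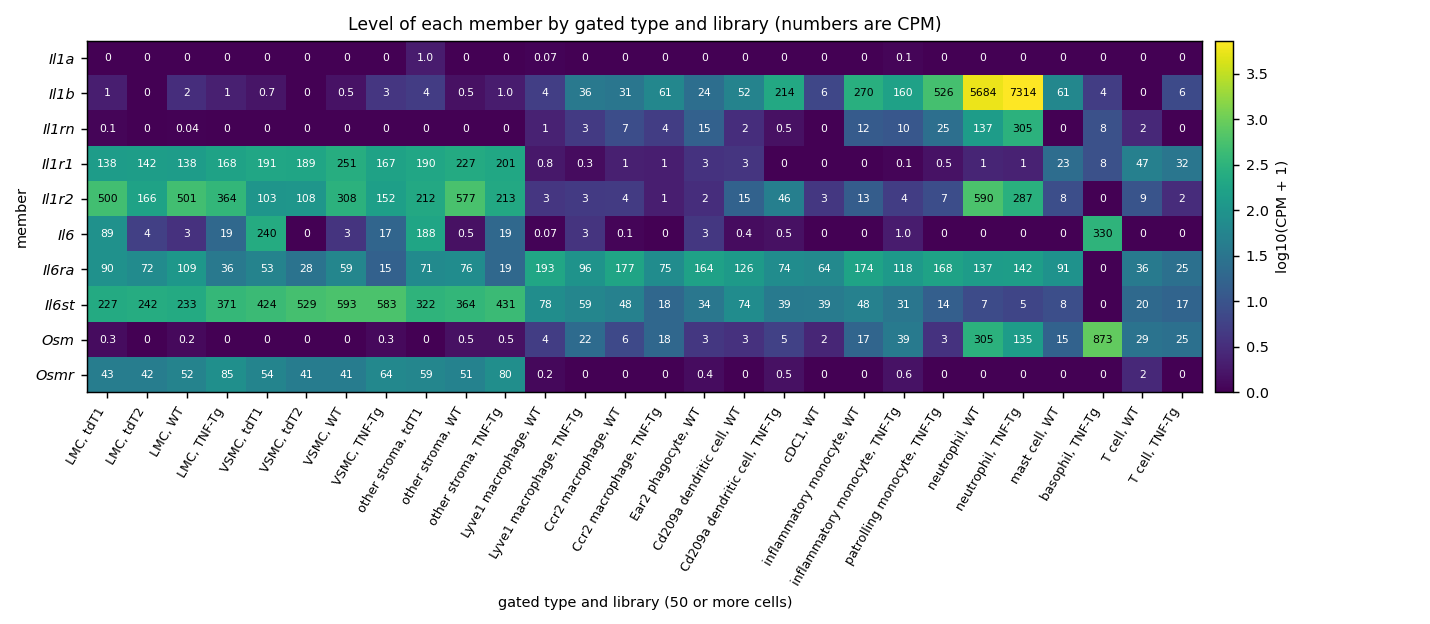
Level of each member (rows) in each named cell type and library of 50 or more cells (columns); colour is log10(CPM + 1) and the printed numbers are CPM. Il1b peaks at 5684 and 7314 CPM in neutrophils, Il6 at 330.4 CPM in TNF-Tg basophils, and Il1r1, Il6st and Osmr are highest in the stromal columns.

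Among the receptors, Il1r1 was mainly stromal. It was 138, 142, 138 and 168 CPM in LMC-type stroma and 191, 189, 251 and 167 CPM in VSMC-type stroma of tdT1, tdT2, WT and TNF-Tg. Its level was 47.3 and 31.7 CPM in T cells of WT and TNF-Tg, and between 0 and 2.94 CPM in macrophages, monocytes, neutrophils and dendritic cells where a library held 50 or more of them. In smaller groups it reached 14.3 CPM (4 UMIs in 22 Cd209a dendritic cells of tdT1). Its TNF-Tg over WT log2 ratio was 0.28 (0.19 to 0.38) in LMC-type and −0.58 (−0.72 to −0.45) in VSMC-type stroma, under 2-fold in both.

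Il1r2, the decoy, was abundant in LMC-type stroma and in neutrophils. In LMC-type stroma it was 499.9 CPM in tdT1, 166 CPM in tdT2 and 501 CPM in WT, against 364 CPM in TNF-Tg, with a UMI in 86.8% of WT and 84.2% of TNF-Tg cells against 3.30% and 2.86% of the Lyve1 macrophages (median depths 12464.5 and 10501 UMIs). In VSMC-type stroma it was 103, 108, 308 and 152 CPM. In the other stroma, tdT1 had 212 CPM, WT 577 CPM and TNF-Tg 213 CPM. WT was therefore the highest library in the VSMC-type and other stroma and level with tdT1 in the LMC-type, and TNF-Tg lay within the range of the other libraries in each. In neutrophils it was 3082 CPM in tdT1 (11 cells), 256 CPM in tdT2 (30 cells) and 589.6 CPM in WT, against 287 CPM in TNF-Tg, with a UMI in 81.6% and 48.4% of the cells of the last 2. The TNF-Tg over WT log2 ratio was −0.46 (−0.52 to −0.40) in LMC-type, −1.02 (−1.15 to −0.88) in VSMC-type and −1.44 (−1.60 to −1.28) in other stroma, and −1.04 (−1.26 to −0.82) in neutrophils. With composition-corrected scaling (TMM), with cells thinned or with each cell weighted equally, the VSMC-type value was under 2-fold, down to −0.48.

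Cd209a dendritic cells had more Il1r2 in TNF-Tg than in WT, at 45.6 CPM against 15.4 CPM (log2 ratio 1.57, 1.03 to 2.12) and a UMI in 28.8% of the cells against 17.0%. The 22 such cells of tdT1, which carry no TNF transgene, had 85.6 CPM (54.8 to 127 CPM, 24 UMIs), above the TNF-Tg value, and the 11 of tdT2 had 0 UMIs. The broad stromal markers go with 6.17% of that level in WT and 2.07% in TNF-Tg, at their ratio to Il1r2 in stroma. Inflammatory monocytes had 13.0 and 4.03 CPM (log2 ratio −1.69, −2.77 to −0.49, from 10 and 29 UMIs). Ccr2 macrophages had 3.65 and 1.12 CPM (log2 ratio −1.70, −4.06 to 0.00, from 27 and 3 UMIs), of which stromal markers go with 56.8% and 46.2%, and with clusters in place of gates that ratio was 0.36.

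By UMIs, which compare genes only up to their capture, LMC-type stroma held more decoy than signalling receptor in tdT1, WT and TNF-Tg. The interval of tdT2 included equal counts. The Il1r2 to Il1r1 ratio there was 3.62 (3.40 to 3.86) in tdT1, 1.17 (0.888 to 1.55) in tdT2, 3.64 (3.50 to 3.78) in WT, and TNF-Tg had 2.17 (2.03 to 2.32). The VSMC-type ratio was 0.539, 0.570, 1.23 and 0.909. The VSMC-type value was below the LMC-type value in each of the 4 libraries, and the TNF-Tg value lay between those of tdT2 and WT in both types. In WT LMC-type cells thinned to 3000 UMIs, 23.6% had a UMI of both genes, against 23.0% from the product of the shares of each gene.

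Il6ra had its lowest stromal values in TNF-Tg, compared with 3 libraries in LMC-type and VSMC-type stroma and with tdT1 and WT in the other stroma. In LMC-type stroma it was 90.2 CPM in tdT1, 72.4 CPM in tdT2 and 109 CPM in WT, against 36.0 CPM in TNF-Tg, and the TNF-Tg interval (31.9 to 40.4 CPM) did not overlap the others. In VSMC-type stroma it was 52.6, 28.4, 59.4 and 14.7 CPM, where the intervals of TNF-Tg (11.2 to 19.0 CPM) and tdT2 (15.5 to 47.6 CPM) overlapped. In the other stroma, tdT1 had 70.9 CPM, WT 76.0 CPM and TNF-Tg 19.2 CPM. The log2 ratios to WT were −1.59 (−1.78 to −1.42), −2.01 (−2.44 to −1.61) and −1.98 (−2.52 to −1.47). Lyve1 macrophages had 193 and 95.9 CPM in WT and TNF-Tg (log2 ratio −1.01, −1.19 to −0.83), and Ccr2 macrophages 177 and 75.3 CPM (−1.24, −1.46 to −1.02). Neutrophils had 137 and 142 CPM, with an interval of the log2 ratio from −0.31 to 0.40. Inflammatory monocytes (174 and 118 CPM) and Cd209a dendritic cells (126 and 74.1 CPM) were lower in TNF-Tg by less than 2-fold. In WT, the order ran from Lyve1 macrophages through Ccr2 macrophages, inflammatory monocytes and Ear2 phagocytes to neutrophils and Cd209a dendritic cells, each neighbour with an overlapping interval, and then to LMC-type stroma, whose interval overlapped none of these.

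Among types with 50 or more cells, Il6st was highest in VSMC-type stroma of every library, at 424 CPM in tdT1, 529 CPM in tdT2 and 593 CPM in WT, against 583 CPM in TNF-Tg. In LMC-type stroma it was 227, 242, 233 and 371 CPM, so the first 3 libraries lay close together and TNF-Tg above them (log2 ratio to WT 0.67, 0.61 to 0.74). The 32 endothelial cells of tdT1 had more, at 1181 CPM (493 UMIs). Lyve1 macrophages had 77.8 and 58.8 CPM in WT and TNF-Tg. Ccr2 macrophages had 48.4 and 18.4 CPM (log2 ratio −1.40, −1.86 to −0.97). Neutrophils, which carried Il6ra, had 6.73 and 5.35 CPM of Il6st, from 9 and 4 UMIs. The Il6ra to Il6st ratio was 0.397, 0.299, 0.466 and 0.0971 in LMC-type stroma and 0.124, 0.0536, 0.1001 and 0.0252 in VSMC-type stroma, lowest in TNF-Tg for both, with an interval that overlapped that of tdT2 in the VSMC-type. It was 2.47 and 1.63 in Lyve1 macrophages and 3.66 and 4.10 in Ccr2 macrophages of WT and TNF-Tg.

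Among the named types with 50 or more cells Osmr was found in stroma, all others lying between 0 and 1.82 CPM, but the 32 endothelial cells of tdT1 had 283 CPM (234 to 339 CPM, 118 UMIs), more than any stromal type. It was 42.5, 41.97, 51.8 and 84.5 CPM in LMC-type stroma and 54.0, 40.6, 40.5 and 63.6 CPM in VSMC-type stroma, with TNF-Tg the highest in both. The log2 ratio to WT was 0.71 (0.57 to 0.84) in LMC-type, 0.65 (0.39 to 0.91) in VSMC-type and 0.66 (0.29 to 1.03) in other stroma, under 2-fold in each. The Osmr to Il6st ratio in LMC-type stroma was 0.187, 0.174, 0.222 and 0.228.

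**Figure D4:**
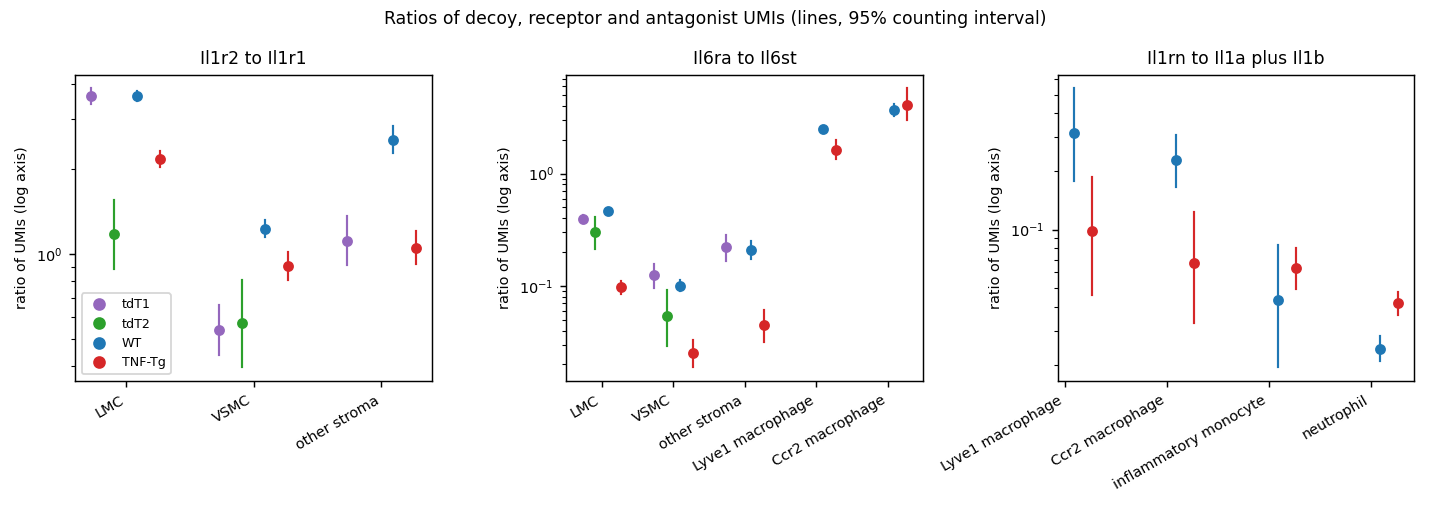
Ratios of UMIs (vertical axes, log scale) of decoy to signalling receptor, of Il6ra to Il6st and of antagonist to ligand in cell types of 50 or more cells, coloured by library, with 95% counting intervals. The Il6ra to Il6st ratio of stroma was lowest in TNF-Tg, and the Il1rn to ligand ratio was higher in TNF-Tg neutrophils and lower in TNF-Tg macrophages than in WT.

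The 2 stromal types could be compared with a test, since all 4 libraries held both. The quasi-likelihood test of edgeR was run on UMIs summed by type and library with the library as a block, and a Benjamini-Hochberg adjusted p under 0.01 was called. Of 11549 genes, 14.4% were called, and 4 of the 7 members tested were among them. The p-values describe how a gene separates types that were gated on other genes of the same cells. Il1r2 was higher in LMC-type stroma in 4 of 4 libraries (log2 1.12, SE 0.22, adjusted p 0.00219), and Il6ra likewise in 4 of 4 (0.88, SE 0.14, adjusted p 0.000230). Il6st was lower in LMC-type stroma in 4 of 4 libraries (−1.12, SE 0.14, adjusted p 3.57e-05). Il1r1 was lower in 3 of 4, TNF-Tg being the exception with 168 and 167 CPM (−0.56, SE 0.14, adjusted p 0.00945). This last call was lost without tdT1 (adjusted p 0.0303), without tdT2 (0.0219), without WT (0.121) and without low-quality cells (0.0174).

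Il6 missed the threshold (log2 −0.77, SE 0.26, adjusted p 0.0461), and without tdT1 its value was −0.06 (adjusted p 0.916). Osmr (0.03, SE 0.14, adjusted p 0.913) and Il1b (0.11, SE 0.69, adjusted p 0.944) were not called either. Of the partner chains, Il1rap was higher in LMC-type stroma (0.87, SE 0.16, adjusted p 0.00125), though not past the threshold without WT (0.0244) or without TNF-Tg (0.0113). Il11ra1, the IL-11 receptor chain that also pairs with gp130, was lower there (−1.29, SE 0.14, adjusted p 9.71e-06), and Lifr, the receptor for leukaemia inhibitory factor, was not called (−0.27, adjusted p 0.381). Of the wider lists, Il18 was higher in LMC-type stroma among 2 other IL-1 family ligands tested, and Cntfr, Il11ra1 and Il31ra were lower among 4 other IL-6 family receptors tested. From the remaining lists, Il1rl2, Irak3, Adam10, Adam17, Ptgs2 and Lcn2 were higher in LMC-type stroma. Lower there were Socs1, Icam1, Mmp3, Vcam1, Hp, Serpina3n, Timp1, Ier2, Hspa1a and Hspa1b. Of 4 other IL-1 family receptors and inhibitors tested, 2 were higher and 0 lower. In the same order, counts were 1 and 0 of 11 IL-1 receptor signalling genes and 0 and 0 of 4 IL-1 processing genes. They were 2 and 1 of 11 gp130 signalling and shedding genes and 1 and 3 of 11 IL-1 and NF-kB targets. For 12 IL-6, oncostatin M and STAT3 targets they were 1 and 3, and for 10 dissociation-response genes 0 and 3. Over all genes 14.4% were called. Without the library as a block, 267 of 10784 genes passed and the lowest adjusted p of a member was 0.0397 (Il6st).

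Across types, TNF-Tg and WT were compared for members with at least 20 UMIs over both libraries, in types of at least 50 cells in each. Of 49 pairs of member and type, 23 were at least 2-fold apart, 11 higher and 12 lower in TNF-Tg. The share of all genes tested that was 2-fold apart is the background for each count. It was 11.9% in LMC-type stroma, where 2 of 7 members were apart (Il6 and Il6ra), 16.6% in VSMC-type stroma with 3 of 6 (Il6, Il1r2 and Il6ra) and 14.8% in other stroma with 3 of 6 (the same 3 genes). It was 11.1% in Lyve1 macrophages with 4 of 6 (Il1b, Il1rn, Osm and Il6ra), 19.9% in Ccr2 macrophages with 4 of 6 (Osm, Il1r2, Il6ra and Il6st) and 13.0% in inflammatory monocytes with 2 of 6 (Osm and Il1r2). It was 14.5% in neutrophils with 3 of 5 (Il1rn, Il1r2 and Osm), 13.9% in Cd209a dendritic cells with 2 of 4 (Il1b and Il1r2) and 11.9% in T cells with 0 of 3. The members were chosen with results of these data known, so these counts describe the members only.

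**Figure D5:**
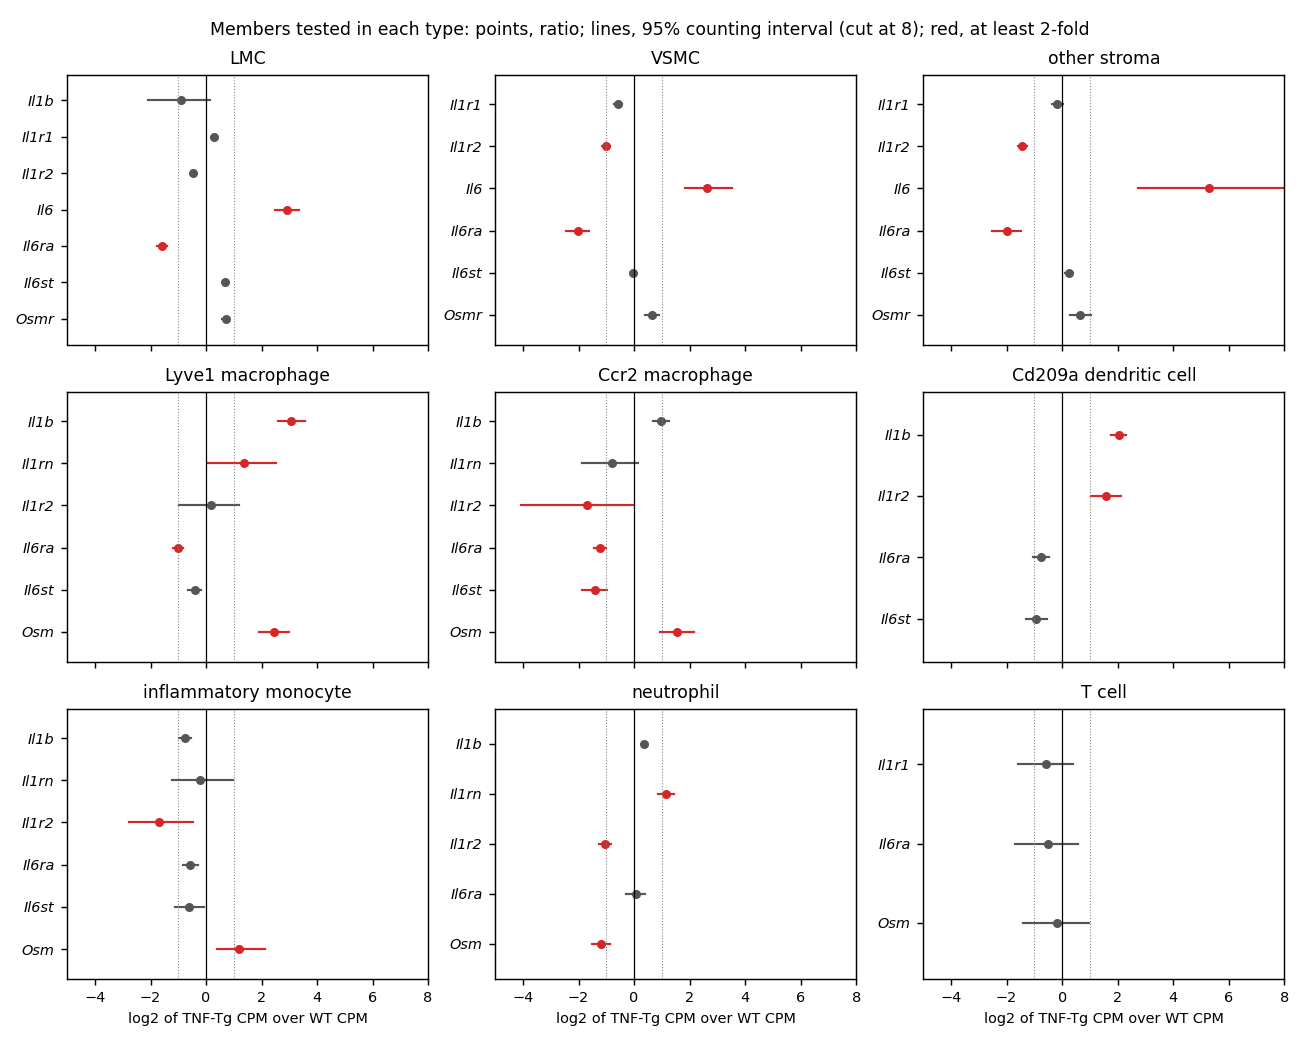
Log2 ratio of TNF-Tg CPM over WT CPM (horizontal axis) for each member tested in 9 cell types; points are ratios, lines 95% counting intervals (cut at 8), red marks at least 2-fold, and dotted lines mark 2-fold. Il6 lies to the right and Il6ra to the left in all 3 stromal types, and Osm lies to the right in macrophages and inflammatory monocytes and to the left in neutrophils.

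Composition-corrected scaling moved the median log2 ratio of all genes from −0.24 to −0.03 in VSMC-type stroma, from 0.04 to −0.07 in Lyve1 macrophages, from −0.03 to 0.08 in inflammatory monocytes and from −0.20 to −0.03 in T cells. The share of 2-fold genes that were higher in TNF-Tg then changed from 21.3% to 44.5% in VSMC-type stroma, from 45.7% to 35.0% in Lyve1 macrophages and from 17.9% to 34.4% in T cells. The range of the other libraries gives a second background, since TNF-Tg lay outside it for 55.6% of all genes in LMC-type, 61.6% in VSMC-type and 77.2% in other stroma (the last against 2 libraries). Of the members, 4 of 7, 3 of 6 and 3 of 6 lay outside, shares near or below those of all genes. Il6ra lay below the range in each of these types and Osmr above it, whereas Il6 and Il1r2 lay within it. The counting intervals of TNF-Tg and the nearest library overlapped for Il6ra in VSMC-type stroma and for Osmr in VSMC-type and other stroma. For Il6 the upper end of that range was tdT1 in each type.

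Over whole libraries, Il6 was 1.70 CPM in WT against 9.96 CPM in TNF-Tg (log2 ratio 2.55, 2.25 to 2.86), Osm 9.26 and 21.5 CPM (1.22, 1.06 to 1.37) and Il1r2 241 and 118 CPM (−1.03, −1.08 to −0.98), the members at least 2-fold apart. In such totals a change in cell numbers and a change per cell cannot be told apart. When the TNF-Tg levels of each type were set to the cell mix of WT, the log2 ratio was 2.47 for Il6, 0.28 for Osm and −0.70 for Il1r2. With the WT levels set to the mix of TNF-Tg, it was 1.74, 0.07 and −0.85. Il1b was 130.1 and 240.2 CPM (0.89, 0.84 to 0.93), and 0.42 and −0.02 at these fixed mixes. Il6ra, at 132 and 68.7 CPM (−0.94), was −1.11 and −0.84. The WT levels set to the mix of TNF-Tg include types of few WT cells. Among them were 5 patrolling monocytes (1168 CPM of Il1b, 44 UMIs in 3 of the cells), a type with 6.34% of the TNF-Tg cells. Another was the 8 basophils (193 CPM of Il6, 6 UMIs), a type with 1.77% of the TNF-Tg cells.

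Other genes of the pathways were counted from lists, and values are for WT and TNF-Tg. The co-receptors differed between lineages. Il11ra1 was 239 and 719.6 CPM in LMC-type stroma (log2 ratio 1.59, 1.54 to 1.65), with 214 and 279 CPM in tdT1 and tdT2, and 602 and 1234 CPM in VSMC-type stroma. Lifr was 377 and 248 CPM in Lyve1 macrophages and 252 and 108 CPM in Ccr2 macrophages (−1.22, −1.41 to −1.04), against 12.4 and 18.0 CPM in LMC-type stroma. It was 105 and 26.5 CPM in Cd209a dendritic cells (−1.98, −2.42 to −1.57) and 78.0 and 19.5 CPM in inflammatory monocytes, 153 CPM in Ear2 phagocytes of WT and 374 CPM in the 32 endothelial cells of tdT1. Il1rap was 30.3 and 18.1 CPM in LMC-type stroma (39.8 CPM in tdT1 and 13.0 CPM in tdT2) and 201 and 106 CPM in neutrophils (−0.93, −1.31 to −0.56). It was at least 2-fold lower in TNF-Tg in VSMC-type stroma (15.7 and 6.59 CPM) and in inflammatory monocytes (15.6 and 6.68 CPM). In VSMC-type stroma tdT1 had 23.9 CPM and tdT2 10.1 CPM, and the tdT2 interval (3.29 to 23.7 CPM) included the TNF-Tg value.

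Of all genes tested in LMC-type stroma, 11.9% were at least 2-fold apart. Of 12 genes known as targets of IL-6, oncostatin M and STAT3, all were tested in LMC-type stroma, 7 were at least 2-fold higher in TNF-Tg and 0 lower, with a median log2 ratio of 1.13 against −0.05 over all genes. Those with the most UMIs were Lbp (345 and 704 CPM) and Serpina3n (182 and 436 CPM), which encode acute-phase proteins, Socs3 (115 and 273 CPM), a feedback inhibitor of the JAK kinases, and Timp1 (21.3 and 361 CPM), an inhibitor of matrix metalloproteinases. Saa3, a serum amyloid A gene named after its values were seen, was 1.22 and 360.4 CPM. In VSMC-type stroma, where 16.6% of all genes were 2-fold apart, 3 of 11 were higher and 0 lower (Saa3, Timp1 and Bcl3). Of 12 targets of IL-1 and NF-kB, 5 of the 11 tested were higher in LMC-type stroma and 1 lower, with a median of 0.30. They included Mmp3 (148 and 748 CPM), a matrix metalloproteinase, the chemokine genes Ccl2 (30.1 and 155 CPM) and Cxcl1 (49.5 and 103 CPM) and the adhesion molecule gene Icam1 (12.9 and 36.1 CPM), whereas Cxcl2 was 4.73 and 1.67 CPM. In VSMC-type stroma 3 were higher and 2 lower. These genes answer to other signals too, TNF among them, and several were known from earlier results of these libraries.

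Of 11 genes of gp130 signalling and shedding, Socs3 and Socs1 (17.7 and 47.9 CPM), both feedback inhibitors, were higher in LMC-type stroma and 0 were lower. Of 12 genes of IL-1 receptor signalling, Myd88, the adaptor of the receptor, was higher there (20.3 and 44.1 CPM) and 0 were lower. Both counts lie near the 11.9% of all genes that were 2-fold apart in LMC-type stroma. In VSMC-type stroma (16.6% of all genes apart), 1 of 11 gp130 signalling and shedding genes was higher (Socs1) and 2 were lower (Adam17 and Jak1). Of 10 IL-1 receptor signalling genes tested in VSMC-type stroma, 1 was higher (Myd88) and 1 lower (Irak3). Il33, another IL-1 family ligand, was 36.7 and 247 CPM in LMC-type and 13.6 and 404 CPM in VSMC-type stroma. Of 5 other IL-1 family receptor and inhibitor genes tested in LMC-type stroma, Il18r1 and Il1rl1 were at least 2-fold lower by CPM and 0 were higher. Their counts were 90 and 5 UMIs for Il18r1 and 22 and 3 UMIs for Il1rl1, the last at the floor of 3. These raw counts overstate the gaps, since the LMC-type sums held 24526592 UMIs in WT and 7785091 in TNF-Tg. Of 7 genes of IL-1 processing, 4 were tested there and 0 were 2-fold apart. In the myeloid types, neutrophils (14.5% of all genes apart) had 3 higher and 0 lower of 8 targets of IL-1 and NF-kB. None was apart of 8 targets of IL-6, oncostatin M and STAT3. Ccr2 macrophages (19.9% of all genes apart) had 1 higher and 3 lower of 11 of the former and 4 higher and 1 lower of 11 of the latter. In the same order, Lyve1 macrophages (11.1%) had 3 higher and 1 lower of 10, and 3 higher and 1 lower of 11. Inflammatory monocytes (13.0%) had 2 higher and 1 lower of 9, and 2 higher and 0 lower of 11. Cd209a dendritic cells (13.9%) had 0 higher and 3 lower of 8, and 3 higher and 0 lower of 8. The higher genes of Ccr2 macrophages were Mmp3 from the first list and Hp, Lcn2, Saa3 and Timp1 from the second. Those of Lyve1 macrophages were Cxcl1, Cxcl2 and Mmp3, and Hp, Lcn2 and Timp1. Of these, Cxcl1, Lcn2, Mmp3, Saa3 and Timp1 were also higher in LMC-type stroma of TNF-Tg. The part of free RNA or of other cell types in the macrophage counts was not tested. In Ccr2 macrophages 6 of the 10 dissociation-response genes were lower in TNF-Tg. Their sum was 8540 CPM in WT against 4272 CPM in TNF-Tg, which stands beside each Ccr2 macrophage value above. In inflammatory monocytes 3 of 9 were lower and 0 higher (6218 and 4333 CPM summed), and likewise 3 of 9 in Cd209a dendritic cells (5108 and 3250 CPM). In tdT1 the sum was 29714 CPM in the 22 Ccr2 macrophages and 22180.3 CPM in the 22 Cd209a dendritic cells. The part of this response in the Osm, Il1b, Il1r2 and other values of these types was not tested.

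Genes with a level pattern like that of a member were sought by Pearson correlation of log2(CPM + 1) over the 26 combinations of type and library with 50 or more cells in WT and TNF-Tg, among 11690 genes. These points share libraries and depth, and the values are descriptions. Osmr was followed most closely, by Olfml1, Rhobtb3 and Mrgprf (r = 0.99 each). Il1b was followed by Clec4e, Mcemp1 and Cd300lf (0.94, 0.94 and 0.93), Il1r1 by S1pr3, Gem and Rnf165 (0.94, 0.93 and 0.93), Il6st by Dag1, Oat and Cdk16 (0.94, 0.93 and 0.92) and Il6ra by Zfp263, Brpf1 and Usf3 (0.92, 0.90 and 0.90). Il1rn was followed by Slc16a3, Cxcl2 and Wfdc21 (0.90, 0.89 and 0.88), Osm by Ripor2, Treml2 and Nbeal2 (0.91, 0.89 and 0.87) and Il6, least closely, by Csgalnact1, Naprt and Tulp3 (0.85, 0.75 and 0.75). Il1r2 was followed by Dab2ip, Gm16894 and Snai1 (0.90, 0.89 and 0.88), and Gm16894 lies antisense across Il1r2 itself.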

How the data were processed

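The authors aligned and counted the reads with Cell Ranger (3.1.0 for tdT1 and 6.0.1 for the others, per the file headers) against mm10, and deposited UMI counts per gene and cell for the barcodes called as cells. No cell was removed here and doublets were left in (Scrublet marked 4, 0, 137 and 51 cells in tdT1, tdT2, WT and TNF-Tg). Cells were gated on marker lists without the members. The members and lists were chosen with earlier results of these data known, and the scoring of the gates was set after seeing the data. UMIs were summed by type and library and scaled to CPM, with exact Poisson, Clopper-Pearson and conditional binomial 95% intervals in Python 3.11.15 (numpy 2.4.6, pandas 2.3.3, scipy 1.17.1, scanpy 1.11.5, matplotlib 3.10.9). A count of 0 was set to a floor of 3 UMIs in ratios. Free RNA was not removed. With 1 pool of mice per condition no test of TNF-Tg against WT was made.

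LMC-type and VSMC-type sums were compared in R 4.3.3 with edgeR 4.0.16 (limma 3.58.1, TMM, filterByExpr), library as block. Both sums of a library come from the same mice and deviated together, with correlations of 0.70, 0.33, 0.59 and 0.68 in tdT1, tdT2, WT and TNF-Tg. On simulated data for this comparison with 11171 genes, 41 of 67, 64 of 67 and 66 of 66 genes changed by log2 1, 2 and 4 were recovered, with 0 false calls. DESeq2 1.42.0 and Seurat 5.3.0 clusters served as alternatives. Every member is named. Of each list, at most the 4 genes with the most UMIs that were 2-fold apart are named, with Il1rap, Lifr and Il11ra1 always, and a few others after their values were seen. Genes of the lists that were called between the stromal types are named too. The 3 genes most like each member are named by correlation. Promoter windows and positions come from RefSeq (GRCm38.p6) and GENCODE annotation of GRCm38.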

Additional observations from a re-analysis of the deposited data

Results flagged for a closer look

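Il1r2 differed in direction between cell types. Its log2 ratio of TNF-Tg over WT was 1.57 in Cd209a dendritic cells, against −1.02 in VSMC-type stroma, −1.44 in other stroma, −1.70 in Ccr2 macrophages, −1.69 in inflammatory monocytes and −1.04 in neutrophils. The Ccr2 macrophage value rests on 27 UMIs in WT and 3 in TNF-Tg (−4.06 to 0.00) and was 0.36 with clusters. In other settings the VSMC-type value came to −0.48. LMC-type stroma (−0.46) and Lyve1 macrophages (0.18, −0.98 to 1.19) were under 2-fold. The difference between the types was not tested, since each condition has 1 library. The 22 Cd209a dendritic cells of tdT1 had 85.6 CPM of Il1r2, above the 45.6 CPM of TNF-Tg.

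Osm differed in direction as well, with 2.45 in Lyve1 macrophages, 1.56 in Ccr2 macrophages and 1.19 in inflammatory monocytes against −1.17 in neutrophils. This difference was not tested either. In tdT1, 22 Ccr2 macrophages (52.7 CPM) and 7 inflammatory monocytes (166 CPM) had more Osm than those of TNF-Tg (18.4 and 38.7 CPM). The tdT1 UMIs lay in only 4 and 3 of these cells. In the tdT libraries, 11 and 30 neutrophils gave 853 and 185 CPM of Osm, against 135 CPM in TNF-Tg, and the interval of tdT2 (98.4 to 316 CPM) held the TNF-Tg value.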

How the results depend on the processing

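The 23 pairs of member and type at least 2-fold apart were 24 without predicted doublets, 23 without low-quality cells, 22 with clusters in place of gates (19 shared), 23 with TMM scaling, 19 with a minimum of 50 UMIs, 31 with no minimum above the floor, 17 of 37 with each cell thinned to 3000 UMIs and 21 with each cell weighted equally. Il1r2 in Ccr2 macrophages, which rests on 30 UMIs, was reversed with clusters, at 0.36. With each cell weighted equally, Il1r2 (−0.97) and Osm (−0.99) in neutrophils and Il6ra in Lyve1 macrophages (−0.85) were just under 2-fold.

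For LMC-type against VSMC-type stroma, 1663 genes were called, 1448 with DESeq2, 2249 with no filter beyond 1 UMI, 267 with no replicate block (library) and 1058 (without WT) to 1477 (without tdT2) when 1 library was left out. Il6 passed with no filter beyond 1 UMI (adjusted p 0.000521), which left more genes in the fit. Of the whole-library ratios, 3 members were at least 2-fold apart, 2 at the cell mix of WT and 1 at that of TNF-Tg. The cause of these shifts was not tested, apart from the fewer cells, genes or libraries each setting leaves. Values from 60 or fewer cells or under 30 UMIs are limited by depth, and 1 pool of mice per condition limits every TNF-Tg against WT value. Leaving out low-quality cells in stroma was an alternative for Il6 chosen after seeing the data.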
